A study of Mus musculus with 2 samples.

Results

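The genes described are 10 genes long used to recognize endothelial cells, the cells that line every blood vessel: Pecam1, Cdh5, Tek, Tie1, Kdr, Flt1, Eng, Esam, Emcn and Robo4. The rule took them by symbol and used none of their values. They are 10 of the 55573 genes listed, of which 21374 had a read and 14829 had at least 10 reads in both libraries together. All 10 had at least 10 reads and 9 had at least 200. Reads per gene were measured by RNA-seq of mesenteric arteries, the small arteries that supply the intestine, in 1 library from arteries in 5 mM K+ and 1 library from arteries depolarized by 60 mM K+. Both libraries came from C57BL/6 mice of wild type genotype, 10 weeks old, and each pooled tissue from 2 mice. The labels give 60 min for both solutions. The study's general methods describe a preparation in which the control was the distal part of ligated arteries. It was taken after incubation without perfusion, before the tissue still on the needle was perfused with 60 mM K+. The study's results instead describe perfusion with either solution. Position along the artery, time in the bath and perfusion may therefore differ between the libraries together with K+. According to the general methods, every solution held tetrodotoxin, which blocks nerve action potentials, and connective tissue was removed before freezing. The arteries were whole, so smooth muscle, endothelium and the outer layer were read together. With 1 library per condition there is no replicate check, no p-value is given, and every interval below covers counting error only.

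Endothelial cells carry receptor tyrosine kinases for vascular endothelial growth factor (VEGF) and for the angiopoietins, and adhesion proteins that seal the borders between neighbouring cells. VEGF signals mostly through VEGFR2, while VEGFR1 binds VEGF tightly and signals weakly, so that it can act as a decoy. In arteries these cells sense flow and pass signals to the smooth muscle beneath. Their shared genes are commonly driven by ETS family transcription factors, which read a GGAA core.

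Of the 10 genes, 7 had more reads in the depolarized library than counting error allowed, by between 1.19 and 1.80-fold, and Kdr, which encodes VEGFR2, had 2.15-fold fewer. The median log2(fold-change) of the 10 was 0.40, beside -0.0047 for the 14829 genes with at least 10 reads. Here log2(fold-change) is 60 mM K+ over 5 mM K+ after scaling by the trimmed mean of M-values (TMM), and its interval is a 95% Clopper-Pearson interval on the share of a gene's reads found at 60 mM K+. Scaling moved every gene by the same amount. The study's qPCR used 2 reference genes, Ppia and Hprt, whose expression it describes as similar in both solutions. After TMM they were higher by 0.51 and 0.47 on the log2 scale. With scaling by these 2 genes the median of the 10 became -0.11 and that of all genes -0.51. Only Flt1 and Cdh5 of the 10 were then still higher at 60 mM K+. Directions are therefore read against the median gene, which lay at -0.0047 after TMM. A gene's distance from it is the same under each library scaling by construction. The median of the 10 lay above the median gene, while Kdr and Emcn lay below it. In whole arteries, more endothelial RNA per cell and a larger share of endothelial cells cannot be told apart.

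The sequence before the start is shown for 4 genes. Flt1 and Kdr are shown as the pair of VEGF receptors, which lay farthest apart in their ratios between the libraries, and Emcn and Eng as a gene with few reads and a gene with many that both hold AGGAAG. RefSeq promoter windows on GRCm38.p6, from 250 bases before the start to 50 after it, were found for 7 of the 10 genes, Eng, Emcn, Tek, Tie1, Kdr, Flt1 and Robo4. Only the 250 bases before the start are printed, read 5′ to 3′ along the gene's own strand. Capitals mark the letters AGGAAG or their reverse complement CTTCCT (an ETS motif), TGACGTCA (the cAMP response element, CRE, to which CREB binds) and TATAAA.

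Flt1 (minus strand, chr5:147726012-147726261): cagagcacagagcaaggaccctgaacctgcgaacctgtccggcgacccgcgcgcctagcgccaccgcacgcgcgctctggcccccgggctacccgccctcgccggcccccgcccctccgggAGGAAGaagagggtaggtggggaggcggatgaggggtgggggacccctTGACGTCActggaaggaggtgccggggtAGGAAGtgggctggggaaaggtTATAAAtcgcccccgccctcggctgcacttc
Kdr (minus strand, chr5:75978456-75978705): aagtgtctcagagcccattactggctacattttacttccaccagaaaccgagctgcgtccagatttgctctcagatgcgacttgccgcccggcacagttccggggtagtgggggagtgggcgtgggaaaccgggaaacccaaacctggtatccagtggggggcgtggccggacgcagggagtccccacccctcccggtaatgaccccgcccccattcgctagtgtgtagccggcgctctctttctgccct
Emcn (plus strand, chr3:137340828-137341077): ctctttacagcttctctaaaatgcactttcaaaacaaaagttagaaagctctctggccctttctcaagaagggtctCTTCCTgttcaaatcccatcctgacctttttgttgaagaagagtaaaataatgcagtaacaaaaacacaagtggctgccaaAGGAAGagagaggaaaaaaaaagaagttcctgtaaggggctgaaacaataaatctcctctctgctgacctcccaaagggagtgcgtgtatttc
Eng (plus strand, chr2:32646345-32646594): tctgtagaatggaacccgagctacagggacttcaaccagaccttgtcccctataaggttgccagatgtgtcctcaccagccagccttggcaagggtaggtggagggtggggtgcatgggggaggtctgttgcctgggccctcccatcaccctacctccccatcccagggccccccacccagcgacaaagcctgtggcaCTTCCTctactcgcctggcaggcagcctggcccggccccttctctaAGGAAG

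The Flt1 window held AGGAAG at -129 to -124 and at -53 to -48, TGACGTCA at -81 to -74 and TATAAA at -31 to -26, counted back from the start. No letters of the motifs searched were found in the Kdr window, which says only that these letters are not there. The printed Kdr sequence does hold the shorter ETS core GGAA and its reverse complement TTCC, for example in gggaaa and cttcca. That core was not searched by itself. AGGAAG lay in 5 of the 7 windows (Eng, Emcn, Tie1, Flt1 and Robo4), and in 35.4% of all 32851 promoter windows of the same length. It was thus in genes with more reads at 60 mM K+ (Flt1, Eng and Tie1) and in genes whose intervals crossed 0 (Emcn and Robo4). The second ETS motif, CGGAAG, was in Tie1 alone of the 7 and in 16.9% of all windows, and the GATA motif AGATAA in Tek alone and in 11.2%. Flt1 was the only one of the 7 with TGACGTCA, present in 1.79% of all windows, with its core TGACG, which lies within it, present in 20.8%, and with TATAAA, present in 13.6%. Both strands were searched for each motif, and a match of letters is not a measurement of binding.

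Levels were compared per length, as deposited FPKM, which divides reads by gene length and by the library's total reads. Pecam1, the adhesion protein CD31 of endothelial borders, stood highest, at 752 FPKM at 5 mM K+ and 921 at 60 mM K+. It gave 61.9% of the reads of the 10 genes at 5 mM K+ and 62.2% at 60 mM K+. Esam, an immunoglobulin-like adhesion molecule of tight junctions, followed at 344 and 405 FPKM. Eng, or endoglin, a co-receptor for bone morphogenetic proteins of the TGF-β family, lay at 152 and 169. Cdh5, the VE-cadherin of adherens junctions, lay at 74.0 and 114 FPKM. For Tie1 and Tek, the pair of Tie receptor kinases, levels were 59.3 and 71.9 FPKM and 34.2 and 35.2 FPKM. Flt1, which encodes VEGFR1, lay at 20.1 and 31.4 FPKM. The last 3 genes were far lower: Robo4, a guidance receptor of endothelium, at 4.40 and 4.0, Kdr at 3.66 and 1.48, and Emcn, the sialomucin endomucin of the cell surface, at 0.979 and 0.476 FPKM.

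The order of the 10 genes by FPKM was the same in both libraries. In the control library Robo4 (95% Poisson interval 3.73 to 5.15 FPKM) and Kdr (3.13 to 4.26) overlapped, and no other neighbours in that order did. In the depolarized library they stood apart, at 3.39 to 4.69 for Robo4 and 1.16 to 1.86 for Kdr. The length behind the deposited FPKM, for example 755 bp for Esam and 2989 bp for Flt1, is shorter than the union of annotated exons in GENCODE vM1, 2867 bp and 11583 bp. With union lengths Cdh5 and Tie1 changed places at 5 mM K+ (40.3 against 44.9) but not at 60 mM K+ (62.0 against 54.4), and the other 8 genes kept their place in both.

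**Figure D1:**
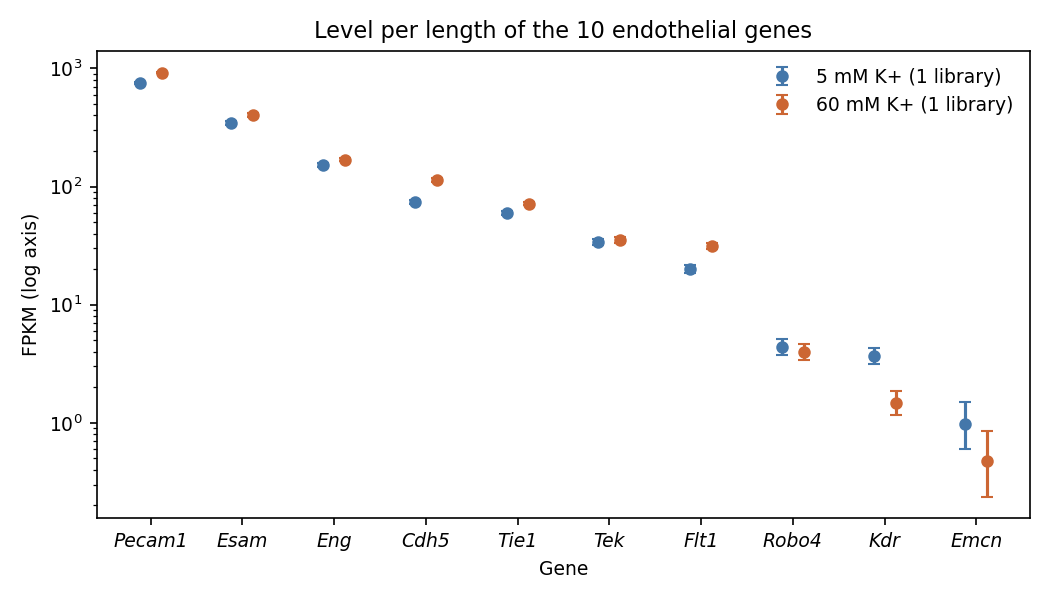
Level per length (FPKM, log axis) of the 10 endothelial genes in the 5 mM K+ library and in the 60 mM K+ library, with 95% Poisson intervals of the reads. Pecam1 was highest, at 752 and 921 FPKM, and Kdr and Emcn were the genes whose point dropped most between the libraries.

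The receptors for VEGF moved apart. Flt1 (ENSMUSG00000029648, mm9 chr5:148373180-148537587, minus strand) had 630 reads at 5 mM K+ and 1058 at 60 mM K+, a log2(fold-change) of 0.85 (0.71 to 0.99), or 1.80-fold. Kdr (ENSMUSG00000062960, chr5:76328852-76374483, minus strand) had 168 reads at 5 mM K+ and 73 at 60 mM K+, a log2(fold-change) of -1.10 (-1.52 to -0.70). Flt1 was thus the highest and Kdr the lowest of the 10 by this ratio, and their distance, 1.95 (1.52 to 2.39) on the log2 scale, does not depend on scaling. Against the 9291 genes with at least 200 reads, Kdr was 1 of 29 with a log2(fold-change) below -1, which is 0.312% of them, and it was the only one of the 9 endothelial genes at that depth. Among all 14829 genes with at least 10 reads, 5.86% were below -1. Kdr, with 241 reads in both libraries together, was near the floor of 200, where counting error is widest, and its interval included -1.

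Of the other receptors and co-receptors of the pathway, Flt4, which encodes VEGFR3 and is mostly lymphatic in adults, had 394 and 392 reads, a log2(fold-change) of 0.09 (-0.11 to 0.30). The co-receptors called neuropilins were lower in the depolarized library: Nrp1 had 452 and 330 reads, a log2(fold-change) of -0.35 (-0.56 to -0.14), and Nrp2 had 143 and 92, one of -0.53 (-0.93 to -0.15). Of the 5 ligands, 3 had intervals above 0 and none below, with a median log2(fold-change) of 0.30. Among all genes with at least 200 reads, 34.1% had intervals above 0. The ligand with the most reads was Vegfa, the main growth factor for endothelium, at 1047 and 1501 reads, with a log2(fold-change) of 0.62 (0.51 to 0.74). Placental growth factor, Pgf, which binds VEGFR1 but not VEGFR2, had 448 and 393 reads, a log2(fold-change) of -0.09 (-0.29 to 0.11).

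The Tie receptors were closer together. Tie1 (ENSMUSG00000033191, chr4:118143796-118162666, minus strand), an orphan partner of Tek, had 2316 reads at 5 mM K+ and 3022 at 60 mM K+, a log2(fold-change) of 0.49 (0.41 to 0.56). Tek (ENSMUSG00000006386, chr4:94405980-94541667, plus strand), the angiopoietin receptor Tie2, had 1231 and 1366 reads, a log2(fold-change) of 0.25 (0.14 to 0.36). Tie1 exceeded Tek by 0.23 (0.10 to 0.37), so the difference between them was larger than counting error. With scaling by Ppia and Hprt both lay below 0, at -0.02 and -0.26, and above the median of all genes. Of the 4 other genes of this pathway, 2 had intervals above 0 and none below, beside 34.1% above 0 among all genes with at least 200 reads. Ptprb, the phosphatase VE-PTP that holds Tie2 in check and the one with the most reads, had 7611 and 7164, a log2(fold-change) of 0.01 (-0.03 to 0.06). Among the ligands, Angpt4, the most read of them, had 1464 and 1928 reads, a log2(fold-change) of 0.50 (0.40 to 0.60). Angpt2, the antagonist released by endothelium, had 356 and 398 reads, a log2(fold-change) of 0.26 (0.05 to 0.47), and Angpt1, the agonist made mostly by mural cells, had 275 and 215, one of -0.25 (-0.52 to 0.01).

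**Figure D2:**
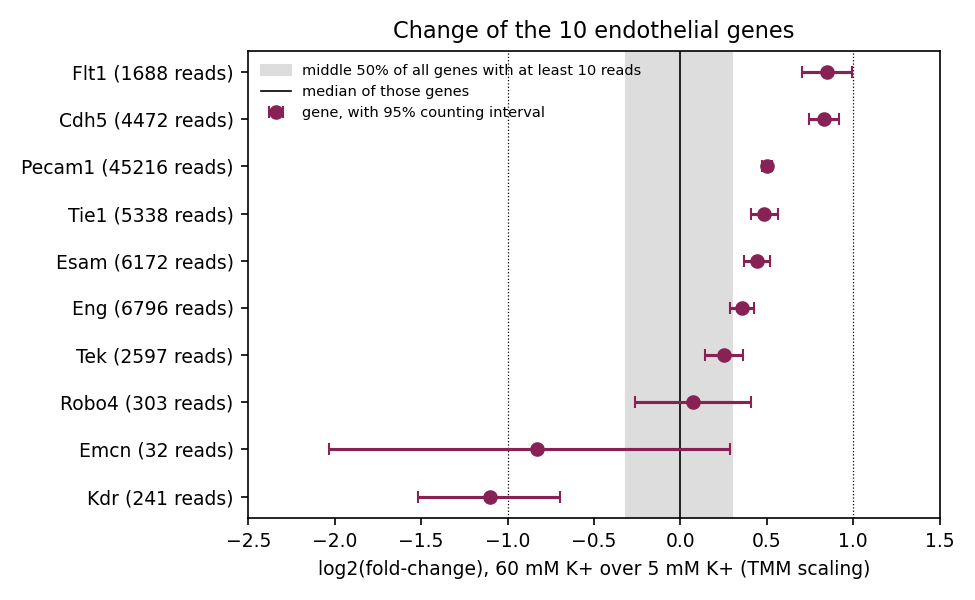
log2(fold-change) of the 10 endothelial genes (points) with 95% counting intervals (bars), 60 mM K+ over 5 mM K+, beside the middle 50% (band) and median (solid line) of the 14829 genes with at least 10 reads; dotted lines mark -1 and 1. For 7 genes the interval lay above 0, for Robo4 and Emcn it crossed 0, and for Kdr it lay below.

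Junction and adhesion genes were higher in the depolarized library. Cdh5 (ENSMUSG00000031871, chr8:106625525-106668402, plus strand) had 1684 reads at 5 mM K+ and 2788 at 60 mM K+, a log2(fold-change) of 0.83 (0.74 to 0.92). It could not be told from Flt1, with a difference of 0.02 (-0.15 to 0.19). Pecam1 (ENSMUSG00000020717, chr11:106515531-106611942, minus strand) had 19497 and 25719 reads, a log2(fold-change) of 0.50 (0.47 to 0.53), and Cdh5 exceeded it by 0.33 (0.24 to 0.42). Esam (ENSMUSG00000001946, chr9:37335663-37345904, plus strand) had 2722 and 3450 reads, a log2(fold-change) of 0.44 (0.37 to 0.52). The intervals of the differences of Pecam1 from Tie1 (-0.07 to 0.10) and from Esam (-0.02 to 0.14) included 0. With scaling by Ppia and Hprt, Cdh5 stayed above 0 at 0.32, while Pecam1 and Esam came to -0.01 and -0.07. Pecam1 overlaps an annotated U3 small RNA over 193 bp, whose reads were not analysed here.

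Eng (ENSMUSG00000026814, chr2:32502115-32538189, plus strand) had 3098 reads at 5 mM K+ and 3698 at 60 mM K+, a log2(fold-change) of 0.36 (0.29 to 0.43), which scaling by Ppia and Hprt turned to -0.15. Its span overlaps Ak1 by 211 bp on the same strand and Fpgs by 61 bp on the other, with 536 and 546 reads on Ak1 and 159 and 148 on Fpgs. It also overlaps 2 short annotated genes with at most 1 read in a library. Nothing says that reads were assigned by strand. The other 8 genes overlap no annotated gene. Emcn (ENSMUSG00000054690, chr3:137004031-137095149, plus strand), which hinders the contact of leukocytes with the vessel wall, had 21 reads at 5 mM K+ and 11 at 60 mM K+, a log2(fold-change) of -0.83 (-2.03 to 0.29). At this depth no difference could be detected for Emcn. Robo4 (ENSMUSG00000032125, chr9:37209482-37221608, plus strand), which steadies the endothelial barrier, had 153 and 150 reads, a log2(fold-change) of 0.07 (-0.26 to 0.41) that was -0.14 with total-count scaling, -0.05 with scaling by smooth muscle markers and -0.44 with Ppia and Hprt. Although both are low genes, Robo4 exceeded Kdr by 1.17 (0.64 to 1.71).

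Over all 45 pairs of the 10 genes, the interval of the difference left out 0 in 34 and held it in 11. Neighbours from Pecam1 down to Robo4 in the order of log2(fold-change) could not be told apart, with differences of 0.02 for Pecam1 and Tie1, 0.04 for Tie1 and Esam, 0.09 for Esam and Eng, 0.11 for Eng and Tek and 0.18 for Tek and Robo4, all with intervals that held 0. Flt1 and Cdh5 stood above these, and Kdr below all of them. The difference of Emcn from Kdr, 0.27 (-1.01 to 1.47), held 0, as did that of Robo4 from Emcn, 0.90 (-0.27 to 2.15).

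Together the 10 genes had 31520 reads at 5 mM K+ and 41335 at 60 mM K+, 0.301% and 0.366% of all reads, and the log2(fold-change) of the sum was 0.49 (0.47 to 0.51). Without Pecam1 the sums were 12023 and 15616 reads and the log2(fold-change) was 0.48 (0.44 to 0.51). An interval above 0 was found for 7 of the 10, beside 25% of genes with at least 10 reads, and an interval below 0 for 1, beside 20.3%. Deeper genes have narrower intervals, so the same counts are also given at 200 reads: 7 of 9 above 0 beside 34.1%, and 1 of 9 below 0 beside 22.5%. At that depth the median of all genes was 0.04. A log2(fold-change) above 0.5 was reached by 3 of the 9 (Flt1, Cdh5 and Pecam1), beside 11.5%. None of the 10 reached a log2(fold-change) above 1, beside 5.54% of genes with at least 10 reads and 2.98% of those with at least 200. By a recomputed random-sampling test at the thresholds of the study's methods, which are a log2(fold-change) beyond 1 in either direction with a q-value below 0.005, 0 of the 10 were called up, beside 2.11% of genes with a read, and 1, Kdr, was called down, beside 1.1%. The calls are those of this recomputation, not the study's own list of changed genes, which is shorter and does not hold Kdr. The test compares these libraries, not the conditions. With a coefficient of variation of 0.2 between libraries assumed in edgeR's exact test, Kdr was no longer called.

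**Figure D3:**
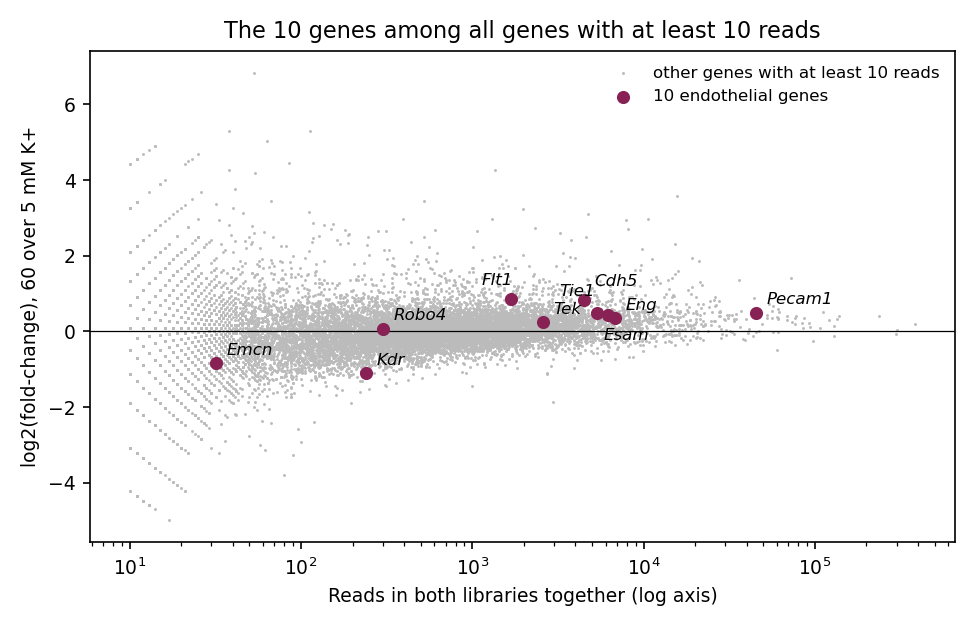
log2(fold-change) of every gene with at least 10 reads against its reads in both libraries together (log axis), with the 10 endothelial genes named. Pecam1 lies among the most read genes at 0.50, Kdr lies at the lower edge of the genes with similar reads at -1.10, and Emcn lies where counting error spreads the points widely.

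Other genes of the endothelium also had intervals mostly above 0, although not in every list. Over all genes with at least 10 reads, 25% had intervals above 0 and 20.3% below. With at least 200 reads these shares were 34.1% and 22.5%, and they apply beside the lists that follow as well. Of 8 other junction and surface genes, 7 had intervals above 0 and none below, with a median log2(fold-change) of 0.36. The one with the most reads, Mcam (CD146, also made by smooth muscle), was the exception, at 16410 and 15556 reads, with a log2(fold-change) of 0.02 (-0.01 to 0.06). Cldn5, the claudin of endothelial tight junctions and a partner of Cdh5 at the same borders, had 1492 and 2217 reads, a log2(fold-change) of 0.67 (0.58 to 0.77). Of 22 other pan-endothelial genes, 17 had intervals above 0 and none below, with a median of 0.40. In that list, Vwf, the clotting factor stored by endothelium, had the most reads, 10480 and 11820, and a log2(fold-change) of 0.28 (0.24 to 0.31).

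Above a log2(fold-change) of 1 lay 5.54% of all genes with at least 10 reads and 2.98% of those with at least 200. The recomputed test called up 2.11% of genes with a read. Of the 22 pan-endothelial genes, 4 lay past 1, all called up by that test. Nos3 alone of them is in the study's own list of changed genes. All 4 come from these same libraries and were picked by their values, so none is independent evidence. Bcl6b, a transcriptional repressor, had 278 and 653 reads, a log2(fold-change) of 1.33 (1.13 to 1.54). Rasip1, a Ras-interacting protein needed for lumen formation, had 286 and 604 reads, one of 1.18 (0.97 to 1.39). Nos3, the endothelial nitric oxide synthase, had 1013 and 2025 reads, one of 1.10 (0.99 to 1.21). The last, Cyyr1, had 207 and 398 reads, a log2(fold-change) of 1.04 (0.80 to 1.29). The 4 were picked for passing 1, which none of the 10 endothelial genes did, so they stand above Flt1 by that choice. The intervals of Rasip1, Nos3 and Cyyr1 overlap that of Flt1, and that of Bcl6b does not.

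Transcription factors of endothelium had a median log2(fold-change) of 0.45 over 18 genes, with 13 intervals above 0 and 1 below. Beside these counts stand 34.1% and 22.5% of all genes with at least 200 reads. Ets1 and Hhex were the 2 past a log2(fold-change) of 1, beside 2.98% of all genes at that depth. Ets1, an ETS factor, had 354 and 1135 reads, a log2(fold-change) of 1.78 (1.61 to 1.96), and is likewise in the study's list, which does not hold Hhex. Hhex, a homeobox factor, had 66 and 161 reads, one of 1.39 (0.97 to 1.82). Klf4, a factor raised by flow, had the most reads, 6576 and 9073, and a log2(fold-change) of 0.57 (0.52 to 0.61). The ETS factors named for endothelium, Erg and Fli1, had 772 and 906 reads (0.33, interval 0.19 to 0.47) and 134 and 155 reads (0.31, interval -0.03 to 0.66). Mef2c, which smooth muscle also makes, was the gene below 0, at 1771 and 1183 reads, with a log2(fold-change) of -0.48 (-0.59 to -0.37).

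In the pathway of Eng, the signal of BMP9 through the receptor ALK1, 4 of 9 other genes with at least 10 reads had intervals above 0, none lay below, and the median was 0.10. The share above 0 was 25% of all genes with at least 10 reads and 34.1% of those with at least 200. Acvrl1, which encodes ALK1 and had the most reads of the 9, had 1736 and 2532 reads, a log2(fold-change) of 0.65 (0.56 to 0.73). The inhibitory Smads were among the 4: Smad6 had 760 and 1266 reads, a log2(fold-change) of 0.84 (0.71 to 0.97), and Smad7 had 1051 and 1926, one of 0.98 (0.87 to 1.09). Bmpr2, the type II receptor, had 1966 and 1879, one of 0.04 (-0.06 to 0.13). The circulating ligands Gdf2 (BMP9) and Bmp10 had 5 reads in each library and 0 reads.

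The guidance genes around Robo4 were not higher. Of 5 with at least 10 reads, none had an interval above 0 and 2 lay below, with a median log2(fold-change) of -0.08. Slit2, a ligand of Robo receptors, had 846 and 521 reads, a log2(fold-change) of -0.60 (-0.76 to -0.44), and Slit3, the most read, had 3209 and 2833, one of -0.08 (-0.15 to -0.01).

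**Figure D4:**
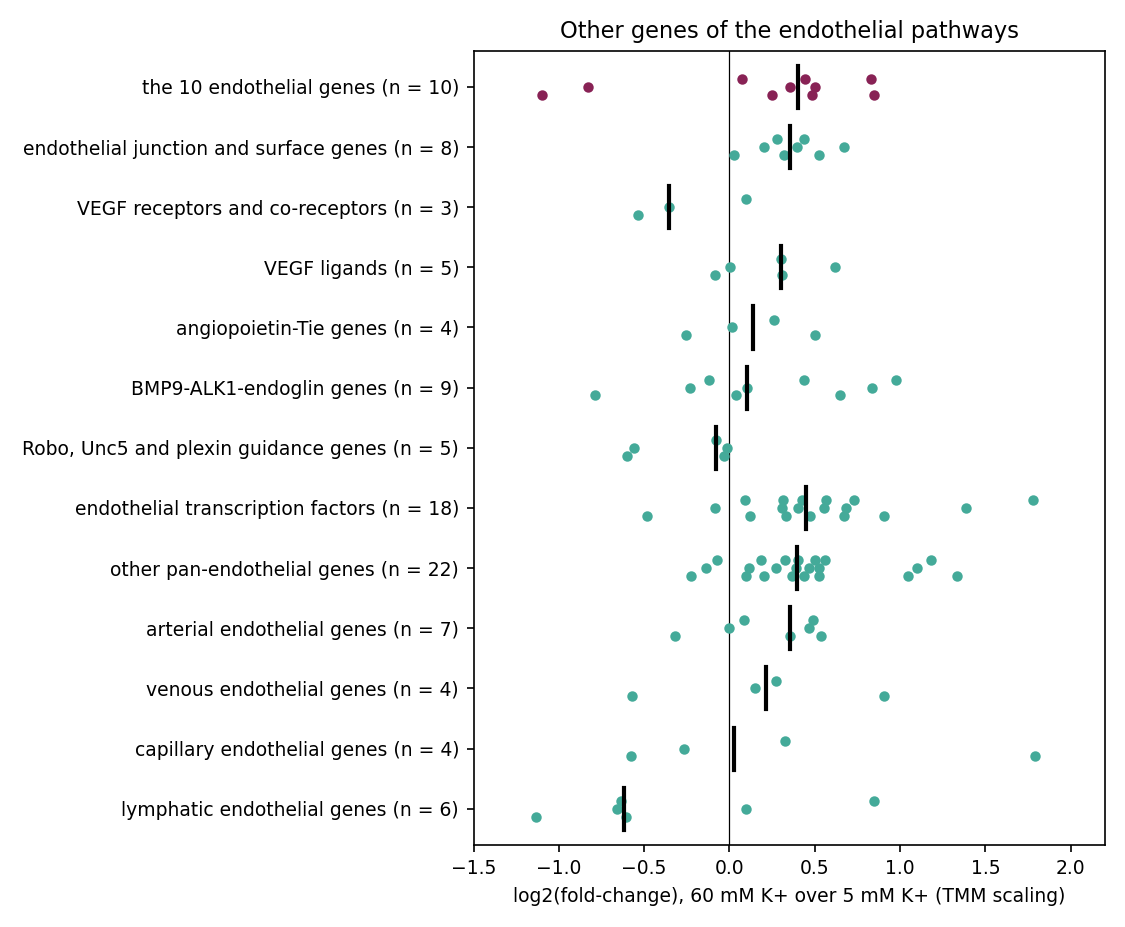
log2(fold-change) of each gene with at least 10 reads (points) in lists of endothelial genes, with the 10 endothelial genes in the top row and left out of the other rows; bars mark medians. Medians of transcription factors, junction genes and other pan-endothelial genes lay between 0.36 and 0.45, near the 0.40 of the 10 genes, and that of lymphatic genes lay at -0.62.

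Kdr and Emcn are strong in capillary and venous endothelium and weaker in arteries, so lists of the other vessel types are given beside them. Of 7 arterial genes, 4 had intervals above 0 and 1 below, with a median of 0.35. Gja4, the connexin 37 gene and the most read of them, had 5860 and 7544 reads, a log2(fold-change) of 0.47 (0.42 to 0.52), while Gja5, for connexin 40, had 1617 and 1210, one of -0.32 (-0.43 to -0.21). The 4 venous genes had a median of 0.21, with no interval above 0 and 1 below. The one below was Nr2f2, the factor that sets venous fate, with the most reads, 1467 and 920, and a log2(fold-change) of -0.57 (-0.69 to -0.45). The other venous values were above 0 within counting error. Ephb4 had 615 and 636 reads, a log2(fold-change) of 0.15 (-0.01 to 0.31), Ackr1 had 39 and 44 reads, one of 0.28 (-0.38 to 0.94), and Aplnr had 4 and 7 reads, one of 0.91 (-1.07 to 3.13). Capillary genes had few reads, Car4 at 8 and 5 reads, Gpihbp1 at 49 and 38 and Kit at 6 and 7. The exception was Rgcc, a cell cycle regulator that other cells also make, at 114 and 368 reads, with a log2(fold-change) of 1.79 (1.49 to 2.11).

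Lymphatic genes, like Kdr, had a median below 0. Of 6 found, 3 had intervals below 0 and 1 above, with a median log2(fold-change) of -0.62. Lyve1, a hyaluronan receptor of lymphatic vessels and of some macrophages, had 318 and 135 reads, a log2(fold-change) of -1.13 (-1.44 to -0.84), and Prox1, the factor that defines lymphatic identity, had 35 and 21. Flt4, the most read of the list, did not differ beyond counting error. Pdpn, the one above 0, had 203 and 340 reads, a log2(fold-change) of 0.85 (0.59 to 1.10). The summed level of the list was 117 CPM (reads scaled to a fixed library size) at 5 mM K+ and 106 at 60 mM K+, and its part in the result for Kdr was not tested.

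Markers of the other cells of the preparation moved as follows, while the summed CPM of the 10 endothelial genes went from 2798 to 3936. Of all genes with at least 10 reads, 25% had intervals above 0 and 20.3% below. Smooth muscle markers summed to 41377 and 45044 CPM, with 6 of 10 intervals above 0, 3 below and a median log2(fold-change) of 0.06. Pericyte markers had a median of -0.02 over 6 genes, with sums of 1763 and 1672 CPM. Fibroblast markers had a median of -0.33, with 6 of 8 intervals below 0 and sums of 7257 and 6003 CPM. Macrophage markers had a median of -0.31, with 3 of 9 intervals below 0, none above and sums of 77.9 and 55.3 CPM. Schwann cell markers had a median of -0.24, with 3 of 5 intervals below 0 and sums of 161 and 145 CPM.

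Adipocyte markers had 4 of 6 intervals below 0 and 1 above, a median of -0.97 and sums of 179 and 130 CPM. Plin1, of the fat droplet, had 101 and 18 reads, a log2(fold-change) of -2.39 (-3.20 to -1.65), and Adipoq, for adiponectin, had 97 and 44, one of -1.04 (-1.59 to -0.51). Lep, the gene above 0, had 1 and 9 reads. Fabp4, the most read of the list, did not differ beyond counting error. It had 1060 and 951 reads, a log2(fold-change) of -0.06 (-0.18 to 0.07). Kdr, Nrp1 and Nrp2 were lower at 60 mM K+, and the value of Emcn was lower within its counting error. Medians were also below 0 for the adipocyte, lymphatic, red cell, fibroblast, macrophage and Schwann cell lists. The part of this in the values of Kdr and Emcn was not tested. Leukocyte markers were near 0, at 2.49 and 0.857 CPM in sum, with Cd3e at 2 and 0 reads and Nkg7 at 0 in both. The 2 with at least 10 reads, Ptprc at 12 and 2 and Itgam at 9 and 1, had intervals below 0. The mesothelial markers Msln, Upk3b and Lrrn4 had 0 reads. Red cell markers, of which 3 were found, had sums of 39.2 and 24.2 CPM.

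**Figure D5:**
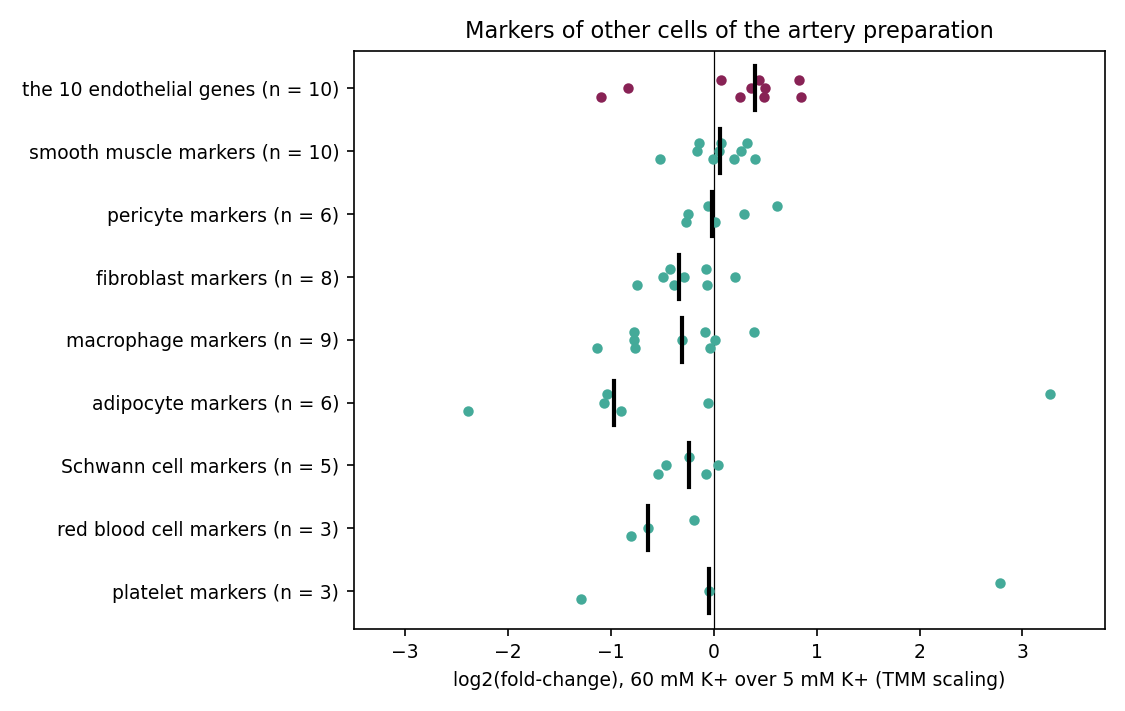
log2(fold-change) of each marker gene with at least 10 reads (points) for other cells of the preparation, with the 10 endothelial genes in the top row; bars mark medians. The medians of fibroblast, macrophage, Schwann, red cell and adipocyte markers lay between -0.24 and -0.97, and that of smooth muscle markers at 0.06.

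The leukocyte adhesion genes Sele, Selp, Icam1 and Vcam1, which the study itself named from these libraries and which are no independent evidence, went further than the identity genes. The paper also followed up-regulated genes by qPCR, and reports that arteries stripped of endothelium showed comparable gene induction. Which cells gave the reads here was not tested. Icam1, which smooth muscle can make as well as endothelium, had 964 and 6904 reads, a log2(fold-change) of 2.94 (2.84 to 3.04). Against it, the adhesion genes that mark identity, Pecam1, Cdh5 and Esam, lay between 0.44 and 0.83.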

How the data were processed

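RNA was made into poly-T selected libraries. The authors aligned the reads with TopHat2 on mm9. The deposited counts per gene were not normalized and summed to 10480918 at 5 mM K+ and 11289598 at 60 mM K+. The submitters' processing notes name TopHat2 2.0.12, HTSeq 0.6.1 and edgeR 3.0.8 and the builds mm8 and mm9, and the annotation used is not given in the sources used here. The authors also deposited FPKM, which was scaled by total reads (1.08 between libraries in all 11769 genes compared).

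TMM factors, computed with edgeR 4.0.16, were 1.07 and 0.930. Symbols came from GENCODE vM1, which named 32601 of 55573 genes, and from RefSeq synonyms. Counting intervals came from scipy 1.17.1. A 0 was set to 0.5 reads in fold changes. DEGSeq's test was recomputed at the study's thresholds, since edgeR's quasi-likelihood test needs replicates. The recomputation was tested on data simulated with counting error alone, which cannot show how it performs when libraries also vary. The recomputed calls are not the study's own list. The members and lists were chosen with earlier results of these data known. Beyond the 10 genes, the rule named, in each endothelial list, genes past an absolute log2(fold-change) of 1 with at least 10 reads and the gene with the most reads; other genes of the lists could be named and were chosen after their values were seen. A planned comparison of protein sequences was not run. Figures were drawn with matplotlib 3.10.9.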

Additional observations from a re-analysis of the deposited data

How the results depend on the processing

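No paired analysis was possible because neither group had a second library, and for the same reason none could be left out. The 10 endothelial genes had a median of 0.40 on the log2 scale, and this stayed between 0.36 and 0.39 with upper-quartile scaling, median-of-ratios scaling (DESeq2 1.42.0) and subtraction of the median of genes of similar length. It was 0.19 with total-count scaling and with FPKM at a pseudocount of 0.1 or of 1, which carry total-count scaling, 0.28 with scaling by smooth muscle markers and -0.11 with scaling by Ppia and Hprt, the last pair of scalings chosen after the data were seen. The median of all genes was then -0.21, -0.13 and -0.51 for total counts, smooth muscle markers and Ppia with Hprt. Above 0 were 8 of the 10 genes with TMM, 7 with total counts, FPKM or smooth muscle markers (Robo4 lost) and 2, Flt1 and Cdh5, with Ppia and Hprt. Kdr lay below 0 throughout, between -1.61 and -0.91, and Emcn between -1.34 and -0.42.

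Over all genes, the recomputed test called 452 up and 235 down, more than the study's own list holds; the cause was not tested. With a coefficient of variation of 0.2 assumed these became 65 and 8, at a q-value under 0.05 the genes called down became 506, and with total-count scaling 307 were called up and 542 down. Genes past a log2(fold-change) of 1 numbered 822 up and 869 down with at least 10 reads, and 277 and 29 with at least 200, where fewer genes are tested. Of 80 values of the 10 genes under the alternatives, 40 moved outside their main counting interval and 10 changed sign. Of 109 medians of the lists under the alternatives, 23 moved and 7 changed sign. Depth limited Emcn most.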

Other observations

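Among the platelet markers, Itga2b, the integrin subunit that platelets and their precursors share, had 7 reads at 5 mM K+ and 45 at 60 mM K+, a log2(fold-change) of 2.79 (1.63 to 4.18), while Pf4 had 21 and 8 reads, Gp1ba had 21 and 19 and Gp6 had 0 in both. Itga2b was chosen after its value was seen. The 7 platelet markers summed to 4.79 and 6.86 CPM.

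Of the smooth muscle markers, Acta2 had 187183 and 199779 reads and Tagln, which is commonly among the most abundant smooth muscle genes, had 314 and 387. Myocd, the cofactor that drives contractile genes, had 1089 and 704 reads, a log2(fold-change) of -0.53 (-0.67 to -0.39), while Cnn1, one of those genes, had 15558 and 18154, one of 0.32 (0.29 to 0.36).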
